A study of Mus musculus with 3 samples.

Results

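Natural killer (NK) cells were taken from the lungs of naive mice and of mice given PyMT mammary tumor cells intravenously 6 h earlier. Barcodes counted as lung cells when 800 to 5000 genes were detected, mitochondrial counts did not exceed 6%, and the hashtag B0304 made up at least 90% of the counts of both hashtags. By this rule 3676 cells of the naive library and 4680 cells of the 6 h library were lung cells, 8356 of the 21113 cells with a single tissue in the whole series. All mice were wild-type females aged 9 weeks, the 6 h group received 100000 PyMT cells, and the naive group had no treatment. Another group, given 100000 PyMT cells 14 days before sacrifice, is set beside these at the end of the results. Live NK1.1+NKp46+ cells had been sorted from dissociated lungs and from blood, and lung and blood cells of a time point shared a droplet library. Each time point was a single library in which the mice cannot be told apart, so the time after injection and the library cannot be told apart either. No test between time points was possible, and intervals given here are 95% intervals for counting error only.

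NK cells are innate lymphocytes that kill tumor cells with granzymes and perforin and recruit other immune cells with chemokines. Interleukins such as IL-2 and IL-15 act on them through their receptors. Triggering receptors and members of the tumor necrosis factor family act on them in part through NF-kB. NF-kB is a family of transcription factors that also induces its own inhibitors. Interferon-gamma, which NK cells both make and sense, induces genes for guanylate-binding proteins, antigen presentation and the immunoproteasome. NK cells mature from less differentiated CD27high cells to differentiated CD11bhigh cells, and CD11b is encoded by Itgam.

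The summed counts of lung cells came to 23468585 UMIs (unique molecular identifiers) in the naive and 35922737 in the 6 h library, with medians of 5909.5 and 7005 UMIs a cell. The median share of ribosomal protein counts was 11.9% and 13.3%. All 12 NK identity genes had at least 20 CPM (counts scaled to 1e6 for the lung cells of a library) in both libraries, and their log2 ratios of 6 h over naive lay between -0.22 for Eomes and 0.11 for Nkg7. T cell markers summed to 492 CPM in naive and 484 CPM in 6 h lung, most of it from Trbc1 and Trbc2, B cell markers to 36.5 and 42.6, monocyte, macrophage and dendritic cell markers to 46.4 and 68.7, and neutrophil markers to 21.6 and 8.82. Lyz2 alone, mostly from very few cells, made up 3.37 and 26.1 CPM of the monocyte, macrophage and dendritic cell sums. Markers of platelets and erythroid cells summed to 8.56 and 8.99 CPM, and those of lung epithelium and endothelium to 51.5 and 60.9 CPM, of which Pecam1 made up 49.4 and 58.5. Cd4, Sftpc, Cdh5, C1qa and Hbb-bs were at 0 in both. Cd3d, a T cell receptor complex gene, had 6.31 CPM in naive and 12.2 CPM in 6 h lung. The part of these other cells in the results was not tested. Only the 70 markers found in at most 5% of lung cells were then looked for cell by cell. By these, without allowing for the greater depth of 6 h cells, 13.9% of naive and 18.5% of 6 h lung cells held a UMI of a marker. Without those cells the log2 ratio of Gadd45b was 0.81, against 0.68 with them, and that of Icam1 0.68, against 0.58. Cells with both hashtags, left out here, were 4.08% of the naive and 2.08% of the 6 h library. Lung cells of both libraries shared 4 barcodes.

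The difference between 6 h and naive lung was small in size for most genes. Of 6404 genes that reached 20 CPM in either library, 23 (0.359%) were at least 1.5-fold higher at 6 h and 4 (0.0625%) at least 1.5-fold lower. At a wider limit of 0.32 on the log2 scale, which also served for gene lists, 152 genes (2.37%) were higher and 223 (3.48%) lower. The median log2 ratio of all genes was -0.08, and the 5th and 95th percentiles were -0.30 and 0.25. The balance of directions depended on the scaling. With the median ratio of genes with at least 50 CPM set to 1, 387 genes were higher and 55 lower past the wider limit, and with totals free of mitochondrial and ribosomal protein genes 235 were higher and 138 lower. Lyz2, the macrophage lysozyme, had by far the largest ratio, 2.96 on the log2 scale, but all except 22 of its 939 UMIs at 6 h came from 2 cells with 474 and 443 UMIs. Another single cell held 70 of the 79 UMIs in naive lung. Of every other gene past 1.5-fold, the 2 richest cells held at most 7.84% of the counts.

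**Figure D1:**
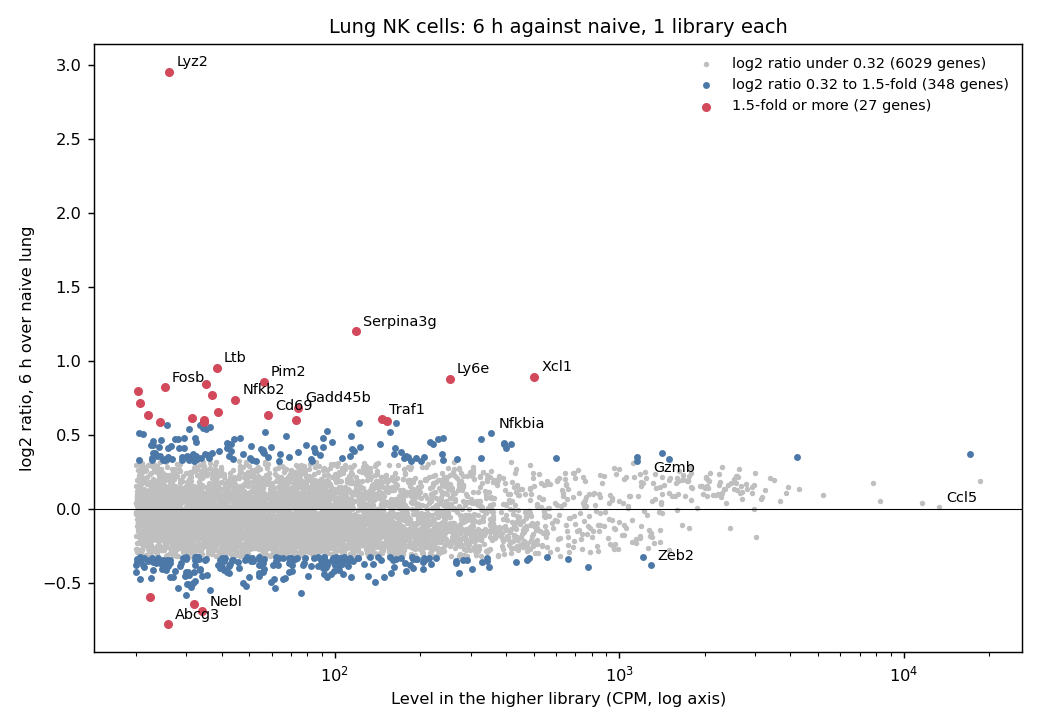
Each dot is 1 of 6404 genes in lung NK cells, with its CPM in the higher library on a log axis and its log2 ratio of 6 h over naive on the vertical axis. The 27 red genes are past 1.5-fold, the 348 blue genes lie between the wider limit and 1.5-fold, and apart from Lyz2 the largest ratio is that of Serpina3g at 1.20.

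Serpina3g, a serpin that inhibits cathepsins and is induced in activated lymphocytes, was at 51.3 CPM (95% CI 48.5 to 54.3) in naive and 118 CPM (114.7 to 121.9) in 6 h lung. Serpina3g was thus 2.30-fold higher, with a log2 ratio of 1.20 (1.11 to 1.30). Xcl1, a chemokine that attracts cross-presenting dendritic cells, was 1.86-fold higher, at 270.5 and 503 CPM. Ly6e, a surface protein of the Ly6 family, was at 137 and 253 CPM (log2 0.88, 0.82 to 0.94). Pim2, a survival kinase downstream of cytokine receptors, was at 31.0 and 56.3 CPM (log2 0.86, 0.74 to 0.99). The naive and 6 h intervals of these genes did not overlap, but the genes were ranked by the ratio of these same counts. At such counts the intervals are narrow, and those of Gzma, at 1.03-fold, did not overlap either. Between 0.51 and 0.68 followed Gadd45b, Cd69, Traf1, Ncf4, Pglyrp1, Icam1, Mrpl23, Mif, C1qbp and Nfkbia, which are among the 15 highest genes above 50 CPM. They include Cd69, an early activation marker that retains lymphocytes in tissue, Ncf4, a subunit of the phagocyte oxidase, and Mif, a cytokine. Below 50 CPM, Lyz2 aside, the highest were Ltb, which encodes lymphotoxin beta (19.8 and 38.4 CPM, log2 0.96), Pmepa1, a target and inhibitor of TGF-beta signalling (19.7 and 35.3 CPM, 0.84), Fosb (14.2 and 25.2 CPM, 0.83) and Srm, the spermidine synthase (11.7 and 20.3 CPM, 0.80).

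The promoters of several of these genes are shown because they carry the letters of kappaB, GAS or ISRE motifs, the sites bound by NF-kB, by interferon-gamma activated factors and by interferon regulatory factors. The windows run from 250 bases before to 50 after a RefSeq start on GRCm38.p6, read 5' to 3' on the gene's strand, with matches on either strand in capitals. Serpina3g (chr12:104235897-104236196, plus strand) has a kappaB match 85 bases and a GAS match 33 bases before the start. The most upstream of the Nfkb2 starts (chr19:46304487-46304786, plus) has a GAS match 148 bases and a kappaB match 11 bases before it. Gbp5 (chr3:142496684-142496983, plus) holds all 3 motifs, with GAS matches 245 and 52 bases, an ISRE match 165 bases and a kappaB match 77 bases before the start. Irgm2 (chr11:58214727-58215026, plus) has a GAS match 75 and an ISRE match 64 bases before it, and Nfkbia (chr12:55492598-55492897, minus) a kappaB match 29 bases before it.
Serpina3g: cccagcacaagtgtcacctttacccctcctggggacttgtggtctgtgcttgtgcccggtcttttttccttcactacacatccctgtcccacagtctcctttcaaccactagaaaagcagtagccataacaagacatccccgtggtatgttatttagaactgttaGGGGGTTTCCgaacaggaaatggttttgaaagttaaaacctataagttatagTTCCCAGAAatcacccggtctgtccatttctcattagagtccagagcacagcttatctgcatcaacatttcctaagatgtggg
Nfkb2: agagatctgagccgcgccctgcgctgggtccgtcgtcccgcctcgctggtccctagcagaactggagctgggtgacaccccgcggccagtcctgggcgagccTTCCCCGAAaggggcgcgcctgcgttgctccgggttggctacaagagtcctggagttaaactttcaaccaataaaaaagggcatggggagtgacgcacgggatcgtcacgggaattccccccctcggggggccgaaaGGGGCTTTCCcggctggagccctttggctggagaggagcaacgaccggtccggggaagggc
Gbp5: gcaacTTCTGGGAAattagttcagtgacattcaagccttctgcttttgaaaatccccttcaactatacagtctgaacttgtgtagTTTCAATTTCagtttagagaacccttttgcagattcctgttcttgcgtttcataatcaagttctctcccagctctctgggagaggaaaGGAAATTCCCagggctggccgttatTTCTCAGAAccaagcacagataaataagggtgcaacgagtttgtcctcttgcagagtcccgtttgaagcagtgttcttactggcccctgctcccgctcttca
Irgm2: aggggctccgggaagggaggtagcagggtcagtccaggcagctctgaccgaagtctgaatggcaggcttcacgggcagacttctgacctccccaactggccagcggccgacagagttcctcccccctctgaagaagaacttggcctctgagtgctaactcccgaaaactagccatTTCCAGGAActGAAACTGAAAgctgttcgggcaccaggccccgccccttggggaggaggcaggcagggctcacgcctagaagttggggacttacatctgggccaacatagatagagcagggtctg
Nfkbia: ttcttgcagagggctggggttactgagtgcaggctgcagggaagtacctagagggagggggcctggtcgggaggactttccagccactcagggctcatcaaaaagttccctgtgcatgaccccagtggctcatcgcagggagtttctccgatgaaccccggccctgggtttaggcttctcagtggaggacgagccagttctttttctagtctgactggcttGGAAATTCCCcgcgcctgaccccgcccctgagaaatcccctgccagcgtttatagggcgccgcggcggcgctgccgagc

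Searched on both strands, kappaB was GGG and TTTCC with any 2 bases between them, GAS was TTC and GAA with any 3 bases between them, and ISRE was GAAA and GAAA with any 2 bases between them. A gene counted once if any of its windows held the letters. Of the 152 genes higher past the wider limit, 124 had a window, and 10 of these (8.06%) held kappaB letters, against 104 of the 5190 tested genes with a window (2.00%) and 1.89% of all 27025 genes of the table. Of the 223 genes lower past it, 173 had a window and 0 held them. GAS letters stood in 14.5% of higher, 8.09% of lower and 8.05% of all tested genes, and ISRE letters in 8.87%, 4.05% and 4.20%. Besides Serpina3g, Nfkb2, Gbp5 and Nfkbia, the higher genes with kappaB letters were Ltb, Pglyrp1, Tnfrsf9, Il4ra, Grcc10 and Shisa5. GAS and ISRE matches overlapped in the windows of Bst2 and Shisa5, and a match of letters is a description of the sequence only.

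NF-kB subunits and feedback genes were higher as a group. Of 22 listed genes 20 had at least 20 CPM, all of them in both libraries, and 8 were higher and 0 lower past the wider limit. Of all genes, 2.37% were higher and 3.48% lower past it. The median log2 ratio of the list was 0.28, beside -0.08 for all genes. Traf1, Icam1, Gadd45b and Nfkbia of this list also stand among the highest genes of this comparison. List members were chosen with earlier results known, so the count past the limit is not independent of the ranking. Nfkb2, which encodes the p100 precursor of the non-canonical pathway, was at 26.7 and 44.6 CPM (0.74, 0.61 to 0.87). Traf1, an adaptor of TNF receptors, was at 96.0 and 146 CPM (0.61), and Icam1, the adhesion ligand of LFA-1, at 81.3 and 122 CPM (0.58). Among the inhibitors of NF-kB, Nfkbia, Nfkbie and Nfkbid were past the limit, and Nfkbib and Nfkbiz, also listed, were not. Nfkbia was at 249.0 and 356 CPM (0.51, 0.47 to 0.56), Nfkbie at 23.1 and 34.8 (0.59) and Nfkbid at 36.7 and 47.5 (0.37). Gadd45b, a stress response gene, was at 46.0 and 73.9 CPM (0.68) and Birc3, an inhibitor of apoptosis, at 161 and 201 CPM (0.32). Relb was just short of the limit at 0.31, while Tnfaip3, which encodes the ubiquitin-editing feedback enzyme A20 and was the most abundant of the list, had 494 and 524 CPM (0.08). Tnfrsf9, which encodes the costimulatory receptor 4-1BB and is outside this list, was at 236 and 328 CPM (0.47, 0.43 to 0.52).

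Several genes induced by interferon-gamma were higher, and fewer of the broader interferon response were. Of 20 interferon-gamma induced GTPases and regulators 10 had at least 20 CPM, and 5 were higher and 0 lower past the limit, with a median of 0.32. The 2 that reached 20 CPM only at 6 h, Irgm2 and Gbp3, are among these 5, and such a filter favours higher genes. Irgm2 was at 12.6 and 20.6 CPM (0.71, 0.52 to 0.91), Gbp5 at 22.8 and 34.5 (0.60), Gbp3 at 17.7 and 24.4 (0.47), Irf1, an interferon regulatory factor, at 71.4 and 97.96 (0.46), and Socs1, a feedback inhibitor of cytokine receptors, at 41.5 and 55.0 (0.41). Gbp7, Irf8 and Gbp8 lay between -0.12 and 0.05. In the interferon response list, 26 of 48 genes had at least 20 CPM, and their median was 0.01. Beside 2.37% and 3.48% of all genes, 4 of the list were higher and 0 lower past the limit. Among them were Isg15, a ubiquitin-like modifier (22.7 and 33.7 CPM, 0.57), Bst2, the virion-tethering protein tetherin (0.48), and Ifi47 (0.42). Others of this list were lower with intervals below 0, such as Sp100, a nuclear body protein, at 445 and 372 CPM (-0.26). Ifng itself was at 117 CPM (95% CI 113.1 to 121.9) in naive and 127 CPM (123.7 to 131.1) in 6 h lung, a log2 ratio of 0.12 (0.05 to 0.19).

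Genes of antigen presentation by MHC class I were shifted slightly upwards, by unequal amounts. All 22 listed genes had at least 20 CPM and a ratio above 0, from 0.02 for H2-T22 to 0.45 for Psme2. Beside 2.37% of all genes, 5 of the list were higher past the limit. These were Psme2 and Psme1, the proteasome activator PA28 (0.45 and 0.44), Tapbp, which encodes tapasin (0.44), Psmb10, an immunoproteasome subunit (0.35), and Calr, a chaperone of peptide loading (0.34). B2m, the light chain, was at 1879 and 2290 CPM (0.29, 0.27 to 0.30) and H2-D1 at 2082 and 2233 (0.10). In a group added after its values were seen, 41 proteasome subunit genes had at least 20 CPM and a median of 0.13. Past the limit 3 of them were higher, or 10 with the median ratio set to 1. Under that setting 387 of all 6404 genes were higher.

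Ribosome biogenesis and growth had 13 genes past the limit, and 18 with the median ratio set to 1. Of all 6404 genes, 152 (2.37%) were higher past it, and 387 with the median ratio set to 1. Of the 42 ribosome biogenesis and growth genes 33 had at least 20 CPM, 3 of them only at 6 h, Srm and Myc among these. All 33 ratios were above 0, and the median was 0.25. Srm led with 0.80, followed by C1qbp, a mitochondrial matrix protein (39.8 and 57.0 CPM, 0.52), the nucleolar methyltransferase Fbl (65.3 and 91.2 CPM, 0.48), Nme1 (172 and 240 CPM, 0.48), Gar1 (0.48), Hspe1 (0.47), Mybbp1a (0.44), Myc (16.9 and 22.9 CPM, 0.44), the translation factor Eif5a (302 and 401 CPM, 0.41), Gnl3, Nhp2, Npm3 and Dkc1. With every cell cut down at random to 3000 UMIs, the ratio of C1qbp was 0.30, short of the limit. Genes of ribosomal proteins, a group added after its values were seen, had a median of 0.19 over 81 genes, of which Rps19 (0.38) and Rps2 (0.34) were past the limit. Nuclear genes of oxidative phosphorylation, also added, had a median of 0.18 over 72 genes. Heat shock proteins and chaperones had a median of 0.21 over 12 genes, with Hspe1 and Hsp90ab1 (920 and 1154 CPM, 0.33) past the limit. With the median ratio set to 1, the genes past the limit were 14 among ribosomal proteins, 21 in oxidative phosphorylation and 4 among chaperones. Without that setting, 2 of 81 ribosomal protein and 2 of 72 oxidative phosphorylation genes were past the limit, near the share of all genes. The unfolded protein response list had a median of 0.15 over 14 genes and glycolysis 0.02 over 15, with 1 and 0 genes past the limit, or 4 and 0 with the median ratio set to 1. Cell cycle genes did not follow. Of 14 with at least 20 CPM, Dut was higher (0.34), Stmn1, which destabilises microtubules (80.8 and 59.0 CPM, -0.45), and the replication helicase subunit Mcm4 (-0.37) were lower, and the median was -0.07.

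**Figure D2:**
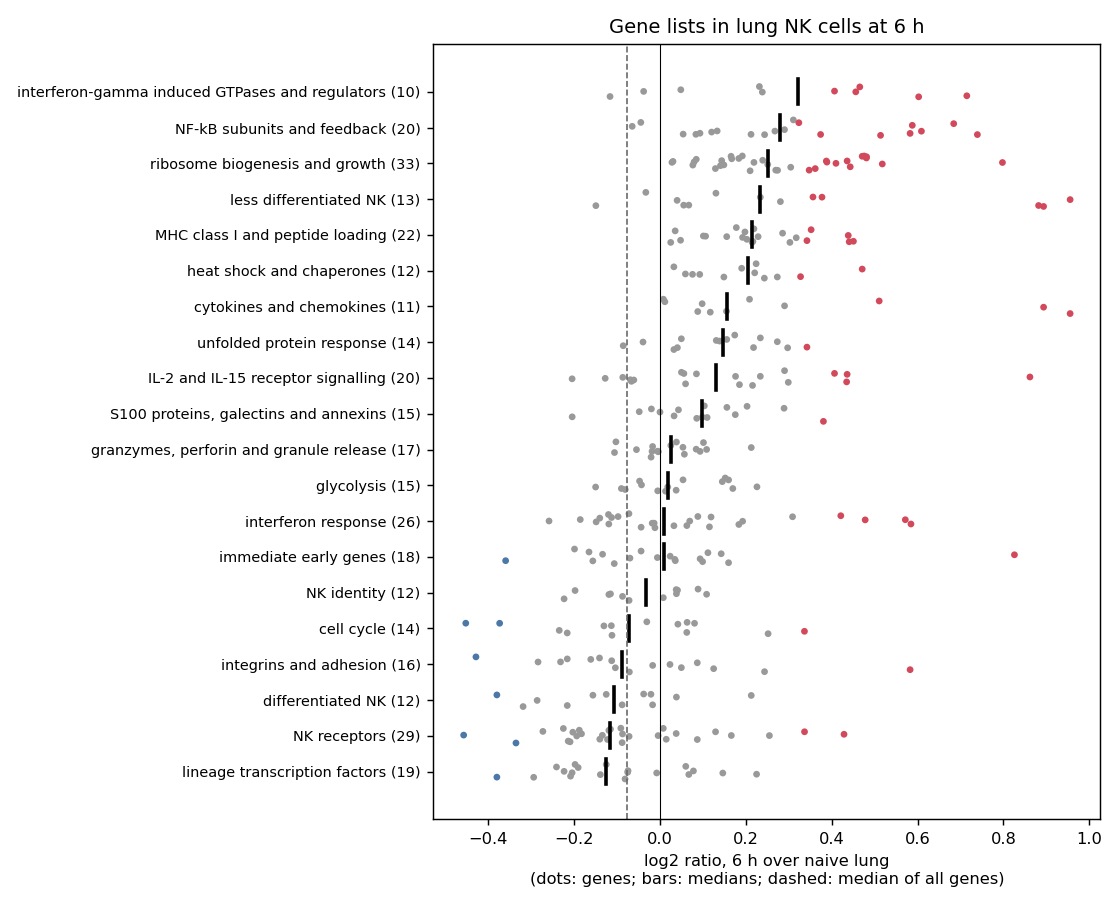
Each dot is a gene with at least 20 CPM of 1 of 20 lists, placed by its log2 ratio of 6 h over naive lung, with red past the wider limit upwards and blue past it downwards. Black bars mark list medians, from 0.32 for interferon-gamma induced genes to -0.13 for lineage transcription factors, and the dashed line marks the median of all genes at -0.08.

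Cytotoxic genes were nearly level between the libraries. Of 17 granzyme, perforin and granule genes with at least 20 CPM, 0 were past the limit in either direction and the median was 0.03. Gzma was at 11315 and 11619 CPM (0.04), Prf1, which encodes perforin, at 1380 and 1364 (-0.02, -0.04 to 0.00), and Gzmb at 1070 and 1240 (0.21, 0.19 to 0.23). Of 11 cytokine and chemokine genes, 3 reached 20 CPM only at 6 h, Ltb and Spp1 among these. Past the limit were Ltb, Xcl1 and Spp1, which encodes osteopontin (14.9 and 21.2 CPM, 0.51), beside 2.37% of all genes higher past it. Ccl4 was at 1302 and 1504 CPM (0.21), Ccl3 at 262 and 263 (0.01) and Ccl5 at 13197 and 13301 CPM (0.01). In the IL-2 and IL-15 receptor list 20 of 27 genes had at least 20 CPM, 2 of them only at 6 h, Myc among these. The list median was 0.13, and Pim2, Myc, Bcl2a1b, an anti-apoptotic protein (58.8 and 79.5 CPM, 0.43), and Socs1 were past the limit. The receptor chain Il2rg was at 302 and 351 CPM (0.22) and the kinase Jak1 at 1145 and 994 (-0.20).

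Some listed genes of less differentiated NK cells were higher, but of those the study's text names for them Thy1 alone was past the limit. The genes of differentiated NK cells lay close to the median of all genes. Of 13 less differentiated genes with at least 20 CPM, 2 of them only at 6 h, 5 were higher and 0 lower past the limit, with a median of 0.23. Besides Ltb, Xcl1 and Ly6e these were the surface glycoprotein Thy1 (43.3 and 56.2 CPM, 0.38) and Plac8 (18.9 and 24.2 CPM, 0.36). Ltb, Xcl1 and Ly6e also stand among the highest genes of this comparison, and list members were chosen with earlier results known. Cxcr4, which the study names, was at -0.03. Ltb and Plac8 were the 2 that reached 20 CPM only at 6 h, and such a filter favours higher genes. Of all genes, 2.37% were higher and 3.48% lower past the limit. Cd27 was at 54.4 and 66.1 CPM (0.28, 0.18 to 0.38), Emb, which encodes embigin, at 362 and 397 (0.13), the transcription factor Tcf7 at 41.4 and 43.3 (0.07) and the chemokine receptor Ccr2 at 228 and 234 (0.04). Cd28 was the lowest of the list at 66.8 and 60.2 CPM (-0.15). Of 12 differentiated genes 0 were higher and 1 lower past the limit, and the median was -0.11, beside -0.08 for all genes. The lower gene was Zeb2, the transcription factor of terminal NK maturation, at 1289 and 990 CPM (-0.38, -0.40 to -0.36). With the median ratio of all genes set to 1, 0 differentiated genes were past the limit, Zeb2 included. S1pr5, the egress receptor, was at 118 and 94.9 CPM (-0.32), the mast cell protease gene Cma1 at 312 and 256 (-0.29), Itgam at 303.9 and 262 (-0.22) and Cx3cr1 at 94.3 and 84.7 (-0.16).

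Few genes of other surface molecules and regulators were past the limit, where 2.37% of all genes were higher and 3.48% lower. Among 29 NK receptor genes with at least 20 CPM, Cd160 (37.5 and 50.5 CPM, 0.43) and Crtam (26.0 and 32.9 CPM, 0.34), both activating receptors, were past the limit higher, and Klri1 (-0.34) and the Ly49 gene Klra10 (26.3 and 19.2 CPM, -0.46) past it lower. Klra genes share long stretches of sequence, so their counts may be split between copies. Tigit, an inhibitory receptor, was at 28.5 and 34.0 CPM (0.25). Of 16 integrin and adhesion genes Icam1 was higher and Itga6, the laminin receptor chain, lower (41.9 and 31.2 CPM, -0.43), with a median of -0.09. Of 12 chemokine receptor and egress genes with at least 20 CPM only Cd69 was past the limit (37.4 and 58.1 CPM, 0.63, 0.52 to 0.75), and Klf2 and S1pr1, which promote egress, were at -0.08 and -0.12. Immediate early genes, which respond to cell handling as well as to receptor signals, had a median of 0.01 over 18 genes. Fosb was higher and Nr4a2 lower (432 and 337 CPM, -0.36), whereas Jun, Junb and Ier2 were at 0.03, 0.02 and 0.04. Of 11 TGF-beta genes Pmepa1 and the corepressor Tgif1 (0.42) were higher, and Tgfbr1, Tgfbr2 and Smad4 were at -0.25, -0.22 and -0.21. Pmepa1 reached 20 CPM only at 6 h, and such a filter favours higher genes. The log2 ratio of Pmepa1 was larger in blood, where it was at only 2.17 CPM in naive and 8.42 CPM in 6 h cells. Its lung minus blood difference was -1.12 (-1.55 to -0.68). Serpins other than Serpina3g lay between -0.28 and -0.01. Of 19 lineage transcription factors Zeb2 alone was past the limit, with Eomes at 291 and 249.1 CPM (-0.22) and Tbx21, which encodes T-bet, at 386 and 337 (-0.20).

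The lower genes spanned longer stretches of the genome than the higher ones. The 4 genes at least 1.5-fold lower were Abcg3, a transporter (25.9 and 15.1 CPM, -0.78), Nebl (34.1 and 21.2 CPM, -0.69), the receptor phosphatase Ptprk (32.1 and 20.6 CPM, -0.64) and Arrb1, which encodes beta-arrestin 1 (22.3 and 14.8 CPM, -0.60). Above 50 CPM the lowest were Tmtc1 (76.0 and 51.3 CPM, -0.57), Arhgap6 (61.8 and 42.6 CPM, -0.54), Slc26a11 (-0.50), Adamts6 (139 and 98.6 CPM, -0.49) and Trf, which encodes transferrin (65.5 and 47.2 CPM, -0.47). Pcmtd2, Dnah8, Ncald, Tmem71, Pxylp1, Zfp831, Stmn1, Cep83, Cpt1a, the rate-limiting enzyme of fatty acid import into mitochondria, and Elovl7 followed, between -0.47 and -0.44. The median gene span was 63.5 kb for the 223 genes lower past the wider limit, 8.06 kb for the 152 higher and 29.3 kb for all genes. Over 5 equal groups of genes by span, the median ratio went from 0.08 in the shortest to -0.03, -0.08, -0.14 and -0.17 in the longest, and in blood from 0.08 to -0.16. Against the median of its own span group, the NF-kB list had a median of 0.31, the interferon-gamma list 0.32, ribosome biogenesis 0.25, MHC class I 0.19 and differentiated NK -0.07, and the part of span in the ratios of single genes was not tested.

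Blood NK cells of the same 2 libraries showed much of the same difference, and some genes differed between the tissues. In blood, 135 of 6527 genes (2.07%) were higher past the wider limit and 185 (2.83%) lower, and 14 (0.214%) were at least 1.5-fold higher and 10 (0.153%) at least 1.5-fold lower. Pim2 (0.86 in lung, 0.88 in blood), Nfkbia (0.51 and 0.49), Mif (0.52 and 0.55), Mrpl23 (0.52 and 0.55) and Zeb2 (-0.38 and -0.39) had nearly the same ratio in both. The log2 ratio of Serpina3g was larger in lung than in blood by 0.32 (0.20 to 0.44), although its level in blood, 74.3 and 137 CPM, was above that in lung at both times. Some NF-kB genes had larger ratios in lung, while Nfkb2 (a difference of 0.15, -0.06 to 0.36) and Nfkbia (0.02, -0.06 to 0.10) had intervals that included 0. Icam1 had 0.58 in lung and 0.18 in blood, a difference of 0.40 (0.29 to 0.51), Traf1 0.61 and 0.26 (0.35, 0.24 to 0.46) and Gadd45b 0.68 and 0.41 (0.28, 0.11 to 0.45). In 17 of the 20 NF-kB genes (85%) the lung ratio was above the blood ratio, beside 46.7% of the 6198 genes with at least 20 CPM in both tissues. The share was 23 of 26 (88.5%) in the interferon response list, 7 of 10 among interferon-gamma induced genes and 16 of 31 (51.6%) in ribosome biogenesis. It was as high as in the NF-kB list or near it in several others, with 10 of 10 cytokine and chemokine genes, 10 of 11 chemokine receptor and egress genes (90.9%), 13 of 15 S100, galectin and annexin genes (86.7%) and 13 of 16 integrin and adhesion genes. Irf1 had ratios of 0.46 and 0.13, Gbp3 0.47 and 0.06, Gbp5 0.60 and 0.28, and Irgm2 0.71 and 0.35. Since lung and blood cells shared each library, a difference between whole libraries enters both ratios.

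Of 4142 genes with at least 50 CPM in any of the 4 sums, 16 (0.386%) had a lung ratio above the blood ratio by more than the wider limit and 13 (0.314%) below it by more. At 1.5-fold, 1 gene (0.0241%) was above, Fos, and 2 (0.0483%) were below, Abcb1b and Irs2. The largest difference was that of Fos, which was level in lung (80.3 and 77.9 CPM, -0.04) and lower in blood (12.8 and 7.29 CPM, -0.81). Ikzf2, which encodes the transcription factor Helios, was higher in lung (43.0 and 50.2 CPM, 0.22) and lower in blood (45.4 and 35.7 CPM, -0.35). Ppp1r15a (-0.01 in lung, -0.44 in blood), Cd69 (0.63 and 0.21) and Ern1, the sensor kinase of the unfolded protein response (0.21 and -0.21), completed the 5 highest. At the other end stood Abcb1b, a multidrug transporter (280 and 236 CPM, -0.25 in lung and 0.41 in blood), Irs2 (-0.28 and 0.36), Sult2b1 (-0.15 and 0.40), Trf (-0.47 and 0.02) and Litaf (-0.15 and 0.28). All 5 were at under 34 CPM in blood, so their blood ratios rest on fewer counts than those in lung.

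**Figure D3:**
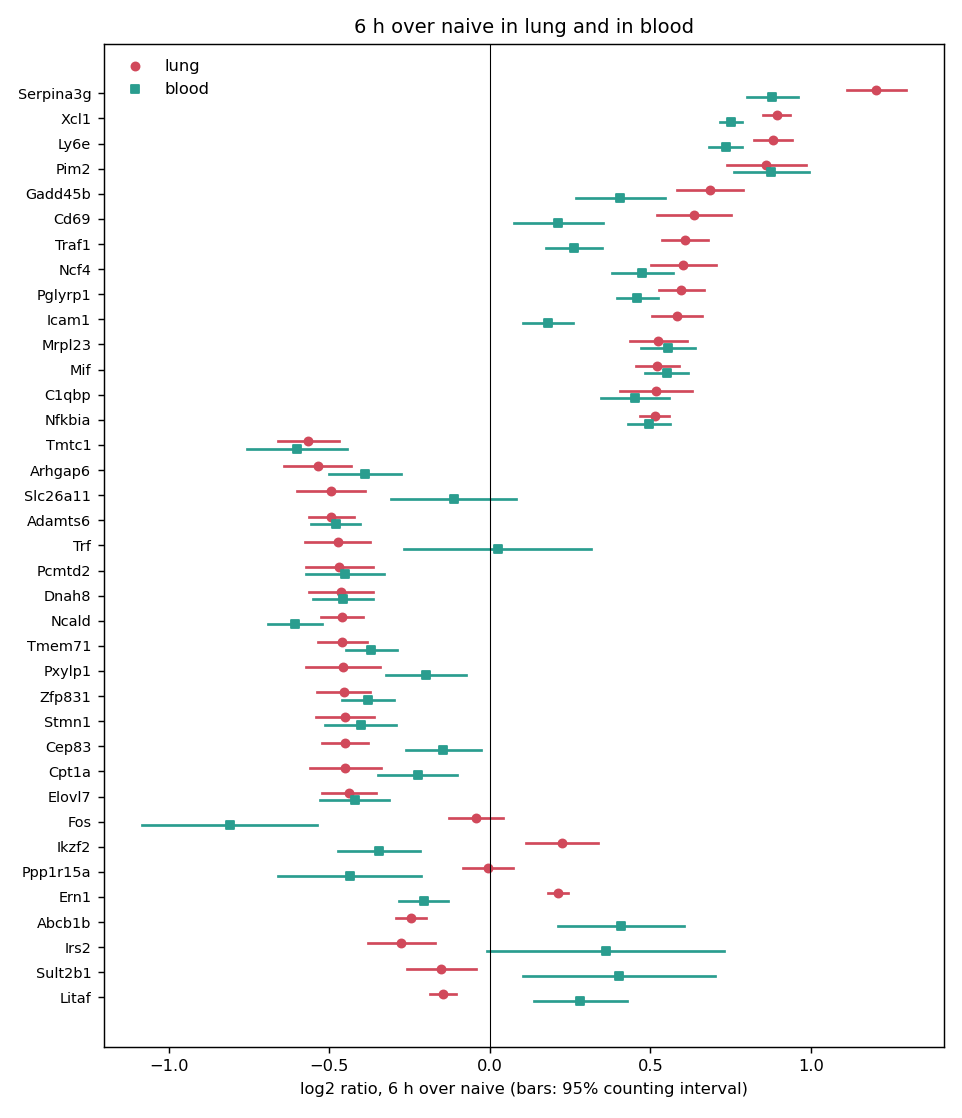
Log2 ratios of 6 h over naive in lung (red circles) and blood (green squares) with 95% counting intervals for the named highest and lowest genes in lung above 50 CPM and the genes with the largest tissue differences. Icam1 lies at 0.58 in lung and 0.18 in blood, Nfkbia at 0.51 and 0.49, and Abcb1b at -0.25 and 0.41.

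The named highest genes above 50 CPM had ratios above 0 within each of 4 classes of lung cells, and Irgm2 and Myc had a ratio below 0 in 1 class. The named highest genes had been ranked by their ratio over these same lung cells. Their ratios above 0 in the larger classes thus follow in large part from that ranking. Cells thinned to 3000 UMIs were classed by a UMI of Cd27, of Itgam, of both or of neither, which sorts by detection and not by cell type, as many cells without a UMI express the gene. Cells with Cd27 only were 6.71% (5.92 to 7.58) of 3590 naive cells and 8.53% (7.75 to 9.38) of 4640 cells at 6 h, and cells with Itgam only 50.4% and 44.9%. Cells with both were 5.26% and 5.78%, and cells with neither 37.6% and 40.8%. Serpina3g had log2 ratios from 0.90 to 1.24 over the 4 classes, Ly6e from 0.56 to 0.92, Traf1 from 0.45 to 0.72, Icam1 from 0.42 to 0.69, Pglyrp1 from 0.51 to 0.65 and Zeb2 from -0.36 to -0.32. Xcl1 varied more, from 0.54 in cells with Cd27 only to 0.99 with Itgam only and 1.44 (1.28 to 1.61) with both. Gadd45b had 2.63 (1.97 to 3.37) in cells with both, from 20 UMIs in naive and 208 at 6 h, and 0.41 to 0.76 in the other classes. The class with both was the smallest, at 189 naive and 268 6 h cells, and ratios scattered more in it. There 205 of 6572 genes were at least 1.5-fold higher and 326 lower, against 17 and 5 of 6403 with Itgam only. Before thinning, single lung cells held up to 35 Gadd45b UMIs in naive and 40 at 6 h, and up to 108 and 126 Xcl1 UMIs. Counting intervals do not allow for such cells, in the Xcl1 and Gadd45b ratios of the classes as elsewhere. The NF-kB list had medians of 0.34 with Cd27 only, 0.50 with both, 0.22 with Itgam only and 0.28 with neither, and MHC class I had medians between 0.20 and 0.23. The less differentiated list, in contrast, had medians of -0.03 with Cd27 only, 0.16 with both, 0.11 with Itgam only and 0.25 with neither.

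**Figure D4:**
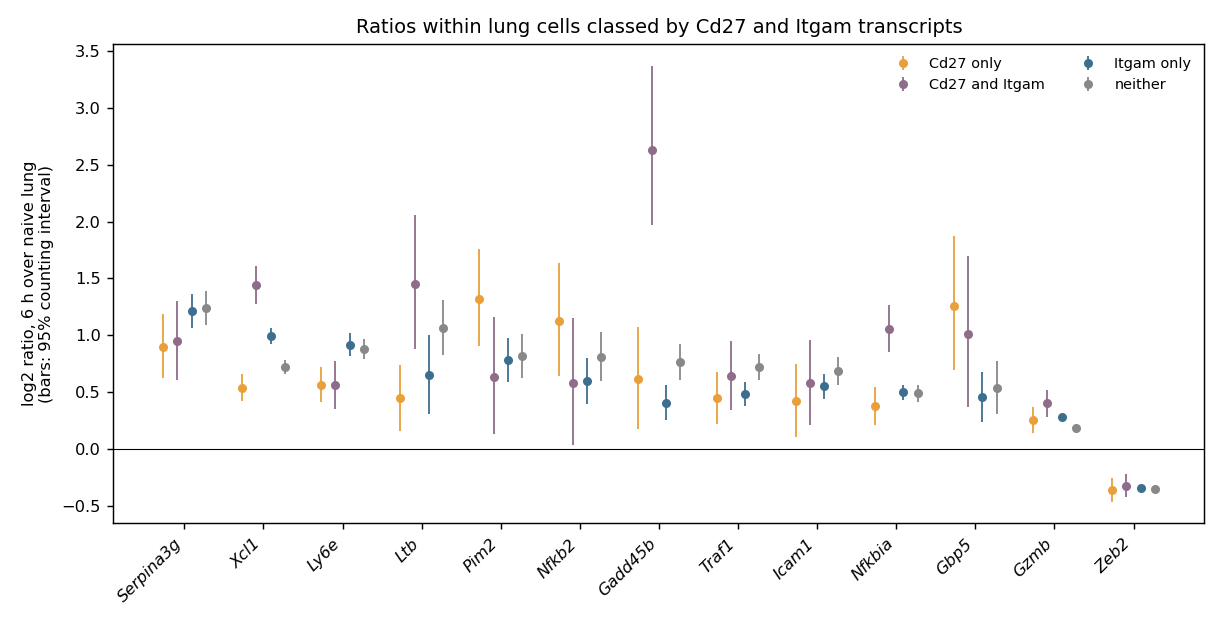
Log2 ratios of 6 h over naive lung, with 95% counting intervals, for 13 genes within cells that held a UMI of Cd27 only, of both Cd27 and Itgam, of Itgam only or of neither after thinning to 3000 UMIs. Serpina3g lies between 0.90 and 1.24 and Zeb2 between -0.36 and -0.32, whereas Gadd45b reaches 2.63 in cells with both, the smallest class.

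Most of the higher genes were found in more cells and with more UMIs in those cells, while C1qbp was found in 10.3% and 12.7% of cells with a mean of 1.13 UMIs in them in both libraries. At 3000 UMIs a cell, Serpina3g was found in 12.5% (11.4 to 13.6) of naive and 25.5% (24.3 to 26.8) of 6 h lung cells, and its mean in those cells was 1.23 and 1.41 UMIs. For Serpina3g free RNA alone would give a UMI in no more than 1.22% of naive and 2.38% of 6 h cells. Ly6e was found in 27.8% and 44.4% of cells, where free RNA would give at most 3.50% and 6.12%. Nfkbia was found in 33.3% and 44.9% (free RNA at most 2.76% and 4.41%) and Traf1 in 20.1% and 27.7% (at most 1.34% and 1.73%). Xcl1 was found in 26.5% and 38.0% of cells, with means of 2.97 and 3.87 UMIs in them and up to 56 and 66 UMIs in a cell. The limit for free RNA was higher for Xcl1, 7.34% of naive and 11.8% of 6 h cells. The 10% of cells richest in Xcl1 held 74.9% of its UMIs in naive and 67.9% in 6 h lung. Gadd45b and Cd69 were found in fewer cells, 7.30% and 10.4% for Gadd45b and 8.33% and 11.5% for Cd69. Gzmb was found in 80% and 83.8% of cells, and free RNA could reach at most 17.3% and 20.9% of them. Ifng was found in 22.01% (20.7 to 23.4) and 23.6% (22.4 to 24.9) of cells, with free RNA at most 2.43% and 2.93%. These intervals overlap, whereas those of its CPM in the naive and 6 h library did not. Intervals over cells give no spread between mice.

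**Figure D5:**
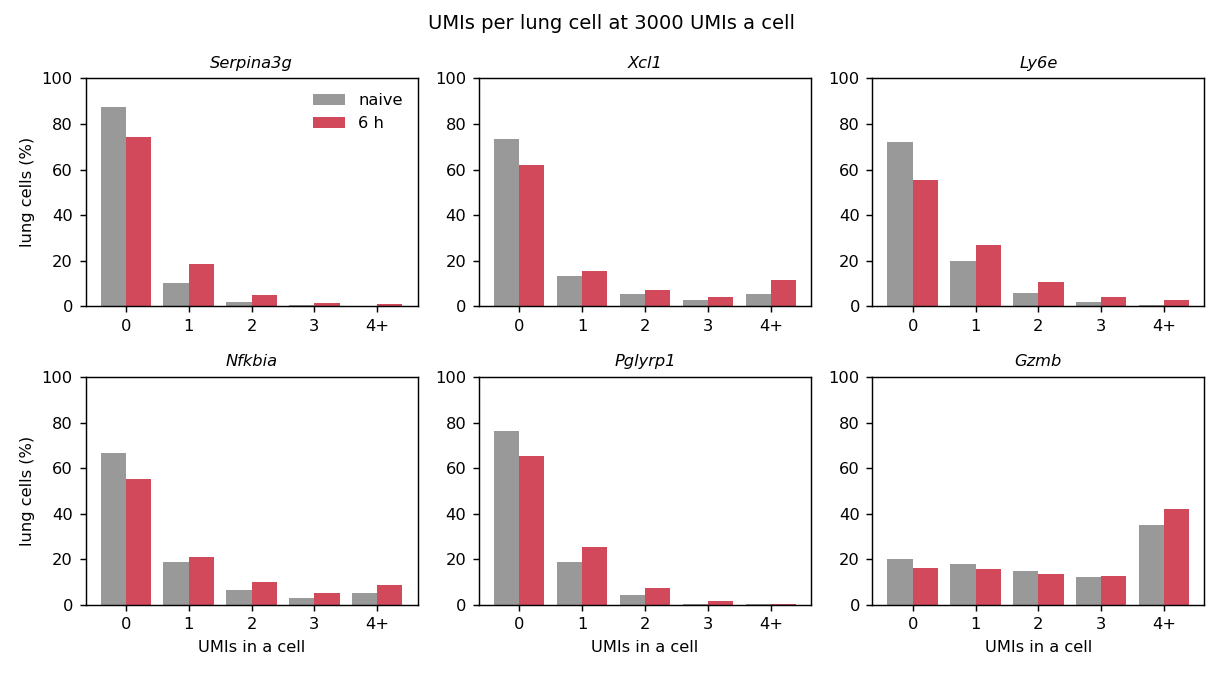
Share of lung cells (%) with 0, 1, 2, 3 or at least 4 UMIs of 6 genes after thinning to 3000 UMIs a cell, naive in grey and 6 h in red. Cells without a Serpina3g UMI were 87.5% in naive and 74.5% at 6 h, and cells with at least 4 Gzmb UMIs are the largest bar in both libraries.

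Lung cells 14 days after injection, set against the same naive lung cells, gave further values for these genes. In that comparison 573 of 6482 genes (8.84%) were higher past the wider limit and 2377 (36.7%) lower, and 283 (4.37%) were at least 1.5-fold higher and 730 (11.3%) at least 1.5-fold lower. Serpina3g had a log2 ratio of 1.20 at 6 h and 1.66 at 14 days, Ly6e 0.88 and 1.66, Xcl1 0.89 and 1.67, Ltb 0.96 and 2.73, Pim2 0.86 and 1.36 and Pmepa1 0.84 and 3.04. The median of all genes was -0.08 at 6 h and -0.22 at 14 days, and the median share of ribosomal protein counts was 13.3% and 20.4%. Genes of the NF-kB list had 0.74 and 0.36 for Nfkb2, 0.68 and 0.04 for Gadd45b, 0.61 and 0.02 for Traf1, 0.59 and 0.10 for Nfkbie and 0.51 and 0.27 for Nfkbia. Pglyrp1, a peptidoglycan recognition protein, had 0.60 and 0.07, and Tnfrsf9 0.47 and -0.37. Isg15 had 0.57 and 1.28 and Bst2 0.48 and 1.44. Both comparisons share the naive lung cells, so an error in these enters both ratios.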

How the data were processed

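Lung and blood NK cells of each time point had been hashtagged, pooled and loaded into 1 droplet library (10x Chromium, 3' chemistry), with several mice in a library. The authors deposited raw UMI counts per gene and hashtag for every barcode, from Cell Ranger (7.1.0 per the matrix headers) with reads aligned to GRCm38.p6. The hashtag B0304 was read as lung from the order in which the methods name the tags. Cells were kept by the study's limits of 800 to 5000 genes and at most 6% mitochondrial counts. Doublets within a tissue were not called, and cells with both tags were left out.

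Counts of lung cells were summed per library and divided by the total (CPM). The log2 ratio of 6 h over naive was given an exact interval conditional on both counts, with genes at 0 set to a floor of 3 counts. Genes that reached 20 CPM in either library were called at 1.5-fold and, for gene lists, at a log2 ratio of 0.32. Genes were named by rank (15 highest and 15 lowest above 50 CPM, 5 at each end of the lung minus blood difference), as list members past that limit or with the highest level, or because the study names them. Members and lists were chosen with earlier results of these data known. Thinning to 3000 UMIs used a fixed seed. Free RNA was bounded from barcodes with at most 100 counts, and the ratio and interval code was tested on simulated data. Promoters came from RefSeq (GRCm38.p6). Python 3.11.15, numpy 2.4.6, scipy 1.17.1, pandas 2.3.3, scikit-image 0.26.0 and matplotlib 3.10.9 were used. Alternatives varied the cell filter, hashtag rule, scaling, level filter, fold, depth, cell weights, free RNA, doublets, marker cells and class mix. Some items are not reported here.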

Additional observations from a re-analysis of the deposited data

Results flagged for a closer look

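Among genes that were ranked, called at 1.5-fold or named by the study, 6 had lung and blood ratios of opposite signs. Each of these ratios of 6 h over naive had a counting interval clear of 0. Other genes were not searched for this, and most of the 6 had been ranked by this very difference. The lung minus blood difference on the log2 scale was 1.23 for Fosb, 0.57 for Ikzf2, 0.42 for Ern1, -0.43 for Litaf, -0.55 for Sult2b1 and -0.65 for Abcb1b. With 1 library per time point these differences between tissues were not tested.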

How the results depend on the processing

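No paired analysis was possible because each time point was 1 library. The 23 higher and 4 lower genes became 38 and 2 with the median ratio set to 1, 39 and 7 from 10 CPM, 9 and 0 from 50 CPM, 794 and 1084 with no level filter, 152 and 223 at a log2 ratio of 0.32, and 2 and 0 at 2-fold. Lower genes were 8 with cells of 1200 to 4000 genes and at most 4% mitochondrial counts, and 9 with cells thinned to 3000 UMIs. They were 7 with the mean of cells and 8 without cells holding any of the 70 rarer markers of other cells. Without those cells the log2 ratio of Lyz2 was -0.52. Class shares moved with depth. Without thinning, naive and 6 h cells with both transcripts were 13.5% and 17.4%, with Itgam only 61.6% and 57.0%, and with neither 18.4% and 16.9%. At 4000 UMIs they were 7.79% and 8.31%, 56.9% and 51.3%, and 28.3% and 31.2%. Of 570 ratios of 38 named genes under these alternatives, 538 moved by less than their interval, 31 moved more and 1 reversed. Of 480 medians of 32 lists, 44 moved by more than the counting error typical of their genes. The setting with the median ratio at 1 gave 27 of these, and 23 of the 480 changed sign. Leaving out the 2 cells with most Lyz2, chosen after seeing the data, moved 1 of the 38 gene ratios. The causes were not tested. Single libraries bound counting error only and give no spread between mice.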
